A study of Danio rerio with 24 samples.

Results

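The genes described here make the classical transmitters of nerve cells or load them into synaptic vesicles. They are gad1b and gad2 (synthesis of GABA), slc32a1 (vesicular loading of GABA), slc17a6a, slc17a6b and slc17a7a (vesicular loading of glutamate), th (synthesis of dopamine and noradrenaline), tph2 (synthesis of serotonin) and slc18a2 (vesicular loading of monoamines). They were chosen by gene symbol, and all 9 were on the array, out of 13547 genes with a symbol. Each was measured by 1 RefSeq target, and slc17a6b by 2, so that 10 targets and 40 probes are described. All 10 targets passed the filter on dim probes, which asked for at least 3 of 20 arrays well above background. The filter could be passed on 3 bright arrays alone, and 36 of the 40 probes would also have passed it on the 17 other arrays. The single probe of NM_001128821, 1 of the 2 slc17a6b targets, would not have. It was well above background on 2 of these 17. The microarrays measured total RNA labelled as ovary from adult female zebrafish of the wildtype AB strain. As embryos, the fish had been kept in water with 0 (control), 0.3, 3 or 30 ppb of the herbicide atrazine from 1 to 72 hours post fertilization (hpf), and then matured without it to an age of 5 to 6 months post fertilization (mpf) according to the labels. There were 6 arrays per treatment, 24 in all. By the methods a biological replicate was a group started on a different day, while the array labels give a replicate number and no day.

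GABA is the main inhibitory transmitter of the brain and glutamate the main excitatory one, while dopamine, noradrenaline and serotonin are made by small groups of nerve cells that reach most of the brain. A nerve cell makes GABA or a monoamine with its own enzyme, and a transporter in the vesicle membrane then fills the vesicles from which the transmitter is released. The set of enzyme and vesicular transporter is therefore commonly used to tell GABAergic, glutamatergic and monoaminergic nerve cells apart. Zebrafish carry an extra copy of many of these genes, named with a and b.

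Of the 5 arrays at 0.3 ppb outside replicate 1, those of replicates 3, 5 and 6 stood apart from all others, and their tissue label went against their markers. They correlated with the median 0 ppb array by 0.606 to 0.625, against 0.896 to 0.974 for the 17 other arrays of replicates 2 to 6. A list of 18 oocyte targets was lower on all 3 arrays than on any of the 17 for 18 of 18 targets, with a mean level of -3.77 to -2.23 on the 3 arrays and 5.30 to 5.90 on the 17. A list of 20 brain targets was higher for 19 of 20, with a mean level of 3.30 to 3.68 against -4.55 to -2.40. Of 10 targets of follicle somatic cells 5 were lower and 5 overlapped. The markers of pituitary (2 of 10 higher, with 2 more left out by the filter on dim probes), eye (4 of 12), pineal gland without tph2 (2 of 5), muscle (2 of 10 higher and 1 lower) and liver (0 of 10) mostly overlapped. Of 8 targets of enteric and sympathetic neurons without th, 4 were higher, and of 6 blood targets 5 were higher. Over all targets with values on these arrays, 27.6% were higher and 16.2% lower. The part of these other cell types in the results was not tested. These 3 arrays are called brain-like below, as a name for their readout and not for a known origin. Because they were picked by their values, they are set against the 17 others as a description with no test. In RNA from whole tissue, fewer cells of a type and less RNA per cell cannot be told apart. Each replicate number had its own slide with 1 array per treatment, and a treatment always had the same position, which cannot be told apart from the treatment. The slides were scanned in 3 sessions (replicates 1 and 2, 3 and 4, 5 and 6). The 4 arrays of replicate 1 were left out because the software had misplaced their grid of spots, and they are described at the end.

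Levels are log2 intensities relative to the 75th percentile of the array, averaged over the probes of a target, so that a level of 0 is as bright as that percentile. They were compared between arrays and not between genes, since probes differ in how brightly they bind. On all 3 brain-like arrays, 9 of the 10 targets were brighter than on any of the 17 other arrays, against 27.6% of the 75187 targets with values on these arrays. slc18a2 was the exception. The 9 include NM_001128821 of slc17a6b, which passed the filter on dim probes only with the brain-like arrays. On the 3 ppb array of replicate 6, th, slc32a1, slc17a6a and both slc17a6b targets had 0 probes well above background. The median difference between the mean of the 3 arrays and the mean of the 17 was 6.14 (log2) over the 10 targets and 0.92 over all targets. The differences below include this general shift.

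All 3 genes of GABA synthesis and loading were brighter on each of the 3 brain-like arrays than on any other array. gad1b, which encodes a glutamate decarboxylase that turns glutamate into GABA, had levels of 3.08, 3.36 and 3.73 on the 0.3 ppb arrays of replicates 3, 5 and 6, against -6.19 to -3.44 (median -5.81) on the 17 others. It read -5.84 and -5.81 on the 0.3 ppb arrays of replicates 2 and 4. Its levels were -6.19, -5.84, -5.91, -4.06 and -4.28 on the 0 ppb arrays of replicates 2 to 6, -6.04, -5.89, -5.95, -4.09 and -3.44 on the 3 ppb arrays and -5.82, -5.55, -5.69, -4.06 and -4.15 on the 30 ppb arrays. The 3 arrays and the rest were 6.52 apart at their closest, and within the 17 the slides of replicates 5 and 6 read higher than those of replicates 2 to 4 at each of 0, 3 and 30 ppb.

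gad2, the second glutamate decarboxylase, which in mammals supplies GABA mainly at nerve endings, had levels of 2.48, 2.78 and 3.00 on the 3 brain-like arrays, against -4.54 to -2.86 (median -3.85) on the 17 others. The levels were -4.13 and -4.32 at 0.3 ppb in replicates 2 and 4. They were -4.04, -4.37, -4.10, -3.20 and -3.49 on the 0 ppb arrays of replicates 2 to 6, -3.87, -3.81, -4.25, -3.53 and -2.86 on the 3 ppb arrays and -3.85, -3.71, -4.54, -3.27 and -3.57 on the 30 ppb arrays. No array lay between the groups, whose means differed by 6.57. slc32a1, the transporter that loads GABA and glycine into vesicles, read 1.61, 2.72 and 2.82 on the brain-like arrays of replicates 3, 5 and 6, against -6.83 to -3.53 (median -5.51) on the 17 others. At 0.3 ppb it read -5.80 and -5.51 in replicates 2 and 4. It read -5.33, -5.71, -5.81, -3.53 and -4.28 on the 0 ppb arrays of replicates 2 to 6, -5.54, -5.99, -5.91, -3.64 and -3.99 on the 3 ppb arrays and -6.83, -4.76, -5.61, -3.71 and -3.87 on the 30 ppb arrays. Its means differed by 7.43, and replicate 3 was the lowest of the 3 arrays for all 3 GABA genes.

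**Figure D1:**
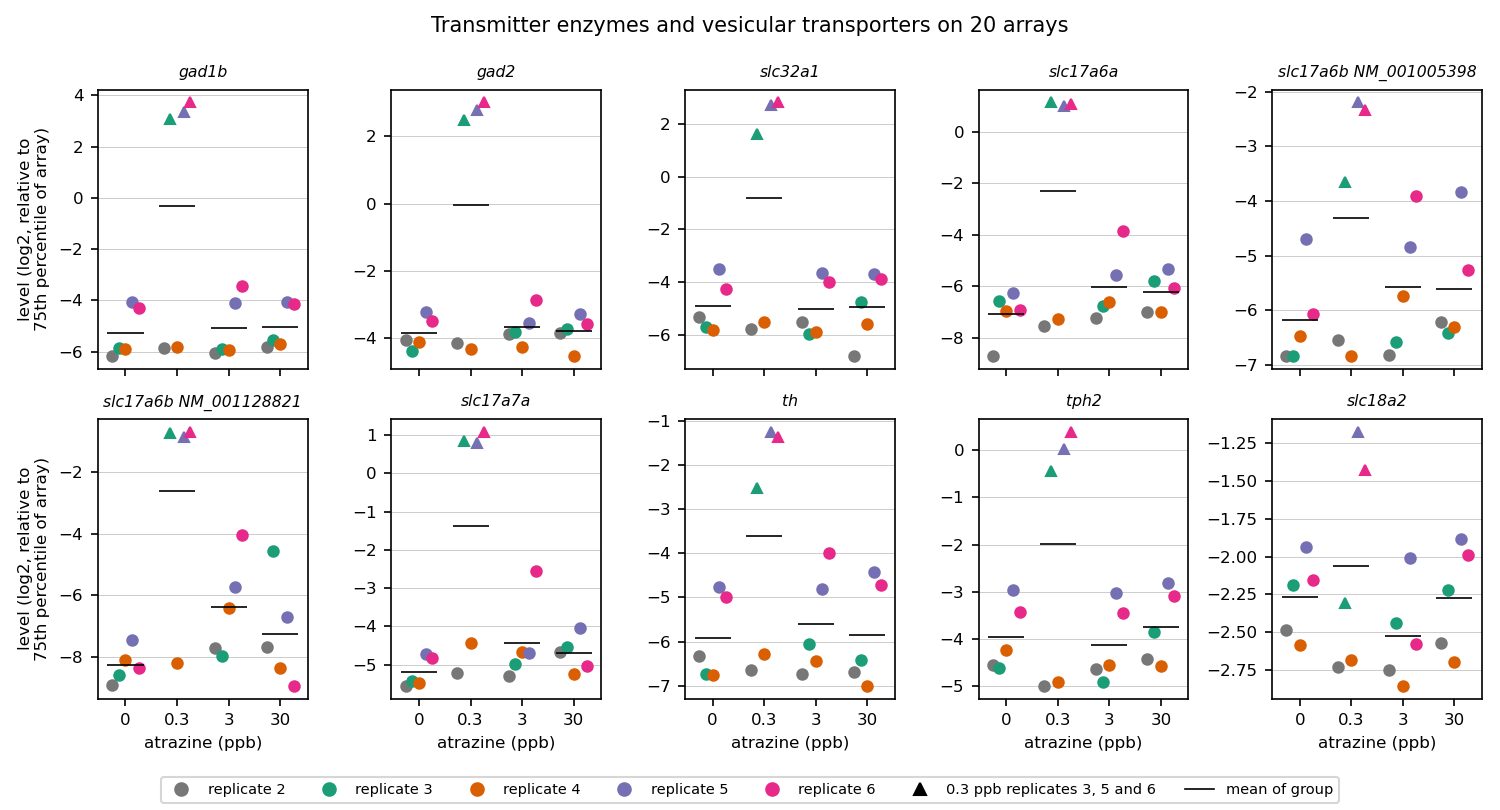
Level (log2 intensity relative to the 75th percentile of the array) of the 10 member targets by embryonic atrazine concentration (ppb), 1 point per array, colored by replicate, with triangles for the 0.3 ppb arrays of replicates 3, 5 and 6 and a line at the mean of each group. The triangles lie above every other point for 9 targets, and for slc18a2 the triangle of replicate 3 lies among the circles.

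All 4 targets of the glutamate transporters were also brighter on the 3 brain-like arrays than on any of the 17. slc17a6a, one of the zebrafish copies of the vesicular glutamate transporter that in mammals is typical of subcortical nerve cells, had levels of 1.16, 1.03 and 1.1 on these 3 arrays, against -8.74 to -3.84 (median -6.78) on the 17. The 0.3 ppb arrays of replicates 2 and 4 read -7.54 and -7.27. The levels were -8.74, -6.57, -6.96, -6.25 and -6.94 on the 0 ppb arrays of replicates 2 to 6, -7.26, -6.78, -6.61, -5.58 and -3.84 on the 3 ppb arrays and -6.99, -5.79, -7.01, -5.33 and -6.08 on the 30 ppb arrays. This target was well above background on 8 of the 17 arrays, so that its lower levels are those of dim spots. Its difference of 7.66 became 6.81 when dim values were raised to the lowest signal well above background on their array.

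slc17a6b, the other copy, was measured by the targets NM_001005398 and NM_001128821. NM_001005398 read -3.66, -2.20 and -2.34 on the brain-like arrays, against -6.84 to -3.84 (median -6.30) on the 17 others. It read -6.54 and -6.83 on the other 0.3 ppb arrays. Its levels were -6.84, -6.83, -6.47, -4.70 and -6.06 on the 0 ppb arrays of replicates 2 to 6, -6.81, -6.57, -5.74, -4.84 and -3.92 on the 3 ppb arrays and -6.21, -6.41, -6.30, -3.84 and -5.26 on the 30 ppb arrays. Its separation was narrow, with 0.18 between replicate 3 and the brightest of the 17. The 3 ppb array of replicate 6 (-3.92) had 0 of its probes well above background, so that this level is that of dim spots. 1 of its 2 probes was well above background on 2 of the 3 arrays and 1 of the 17. That probe passed the filter on dim probes only with the brain-like arrays. NM_001128821, which has 1 probe, read -0.72, -0.84 and -0.69 on the brain-like arrays, against -8.93 to -4.02 (median -7.82) on 16 others. It read -8.19 at 0.3 ppb in replicate 4, and the spot of replicate 2 was marked as an outlier. The levels were -8.90, -8.57, -8.08, -7.43 and -8.34 on the 0 ppb arrays of replicates 2 to 6, -7.69, -7.96, -6.41, -5.73 and -4.02 on the 3 ppb arrays and -7.68, -4.55, -8.35, -6.69 and -8.93 on the 30 ppb arrays. Of the 17 other arrays 2 had it well above background, and of the 5 at 0 ppb 0 had. With dim values raised to the lowest signal well above background on their array, the difference from the 17 was 5.03 for NM_001128821 (6.60 as measured) and 2.71 for NM_001005398 (3.16 as measured).

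slc17a7a, a copy of the vesicular glutamate transporter typical of cortical nerve cells in mammals, had levels of 0.85, 0.80 and 1.09 on the brain-like arrays, against -5.56 to -2.55 (median -4.82) on the 17 others. The 0.3 ppb arrays of replicates 2 and 4 read -5.21 and -4.43. Its levels were -5.56, -5.43, -5.47, -4.73 and -4.82 on the 0 ppb arrays of replicates 2 to 6, -5.29, -4.98, -4.66, -4.70 and -2.55 on the 3 ppb arrays and -4.66, -4.55, -5.25, -4.05 and -5.03 on the 30 ppb arrays. The brightest of the 17 was replicate 6 at 3 ppb, an array whose grid the software marked as poor, and it was still 3.35 below the dimmest of the 3. 1 of the 2 slc17a7a probes was well above background on 0 of the 17 and passed the filter only with the brain-like arrays. It differed by 8.18, against 3.22 for the other probe.

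Of the 3 monoamine genes, both enzymes separated the arrays and the vesicular transporter did not. th, tyrosine hydroxylase, the rate-limiting enzyme of dopamine and noradrenaline synthesis, had levels of -2.52, -1.25 and -1.37 on the brain-like arrays, against -7.00 to -3.99 (median -6.33) on the 17 others. It read -6.65 and -6.29 at 0.3 ppb in replicates 2 and 4. Its levels were -6.33, -6.73, -6.77, -4.77 and -4.98 on the 0 ppb arrays of replicates 2 to 6, -6.73, -6.06, -6.44, -4.81 and -3.99 on the 3 ppb arrays and -6.70, -6.43, -7.00, -4.42 and -4.71 on the 30 ppb arrays. No array lay between the groups for th. The brightest of the 17, the 3 ppb array of replicate 6 with its poor grid, had 0 th probes well above background. Its level of -3.99 is thus that of dim spots. tph2, the tryptophan hydroxylase of serotonergic nerve cells, read -0.44, 0.04 and 0.39, against -4.99 to -2.81 (median -4.43) on the 17. It read -4.99 and -4.91 on the other 0.3 ppb arrays. The levels of tph2 were -4.55, -4.61, -4.24, -2.96 and -3.44 on the 0 ppb arrays of replicates 2 to 6, -4.64, -4.92, -4.56, -3.03 and -3.44 on the 3 ppb arrays and -4.43, -3.85, -4.58, -2.81 and -3.08 on the 30 ppb arrays. Both enzymes were higher on each brain-like array than on any other array, and their means differed by 4.16 and 4.06. With dim values raised to the lowest signal well above background on their array, these differences were 3.66 and 3.96.

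slc18a2, the vesicular transporter that loads dopamine, noradrenaline and serotonin, did not separate the arrays. Its levels were -2.30, -1.17 and -1.43 on the 0.3 ppb arrays of replicates 3, 5 and 6, against -2.86 to -1.88 (median -2.49) on the 17 others. It read -2.73 and -2.69 at 0.3 ppb in replicates 2 and 4. Its levels were -2.49, -2.19, -2.59, -1.94 and -2.15 on the 0 ppb arrays of replicates 2 to 6, -2.75, -2.44, -2.86, -2.01 and -2.58 on the 3 ppb arrays and -2.57, -2.22, -2.70, -1.88 and -1.99 on the 30 ppb arrays. Replicates 5 and 6 at 0.3 ppb were above all 17 and replicate 3 lay among them, and on the slide of replicate 3 the 0.3 ppb array was 0.02 below the mean of the other 3 arrays. The difference of 0.76 was under the 0.92 of all targets, and both probes of slc18a2 were well above background on 16 or 17 of the 17 arrays.

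Each brain-like array could also be set against the 3 arrays of other doses on its own slide, which shared the hybridization and the scan. On the slide of replicate 3 the differences of the 10 targets had a median of 6.07 and ranged between -0.02 and 8.84. On the slides of replicates 5 and 6 the medians were 5.53 and 5.77, the lowest were 0.77 and 0.81, and the highest were 7.43 and 7.69. The slide of replicate 6 includes the 3 ppb array with a poor grid. These differences include the general shift over all targets, whose size within a slide was not computed. Within the 17 other arrays, the 6 arrays of the last scan session read higher than the 11 of the earlier sessions by a median of 1.41 over the member targets and 0.70 over all targets. The part of this shift in the differences from the 17 arrays was not tested, and the values within a slide come from arrays of the same session.

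The probes of a gene did not all part the arrays equally. The differences of the 40 probes between the means of the brain-like arrays and of the 17 others lay between 0.26 and 11.85 (median 5.72). Over all targets the median difference was 0.92, and the share of all probes that were higher was not computed. Of the 40 probes, 38 were well above background on all 3 brain-like arrays. On the 17 arrays, 17 probes were well above background on 16 or 17 and 1 probe on none. For gad1b, 3 such probes differed by 1.99 to 8.47 and the other 5 by 8.58 to 11.85. For gad2, 5 probes differed by 3.08 to 7.34 and the other 4 by 7.78 to 9.31. The 2 probes of slc17a7a differed by 3.22 and 8.18, and the probe with the wider difference was well above background on 0 of the 17. Like it, 1 gad2 probe passed the filter on dim probes only with the brain-like arrays. That gad2 probe was well above background on 1 of the 17 and differed by 8.93. On the 11 other arrays of replicates 2 to 4, 3 or 4 of the 8 probes of gad1b and 5 or 6 of the 9 of gad2 were well above background. On the 6 of replicates 5 and 6 it was 7 or 8 probes of each gene, except on the 3 ppb array of replicate 6 with its poor grid, which had 1 and 2. slc17a7a had 1 of 2 on each of the 17 arrays. Whether these probes bind another transcript was not tested.

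**Figure D2:**
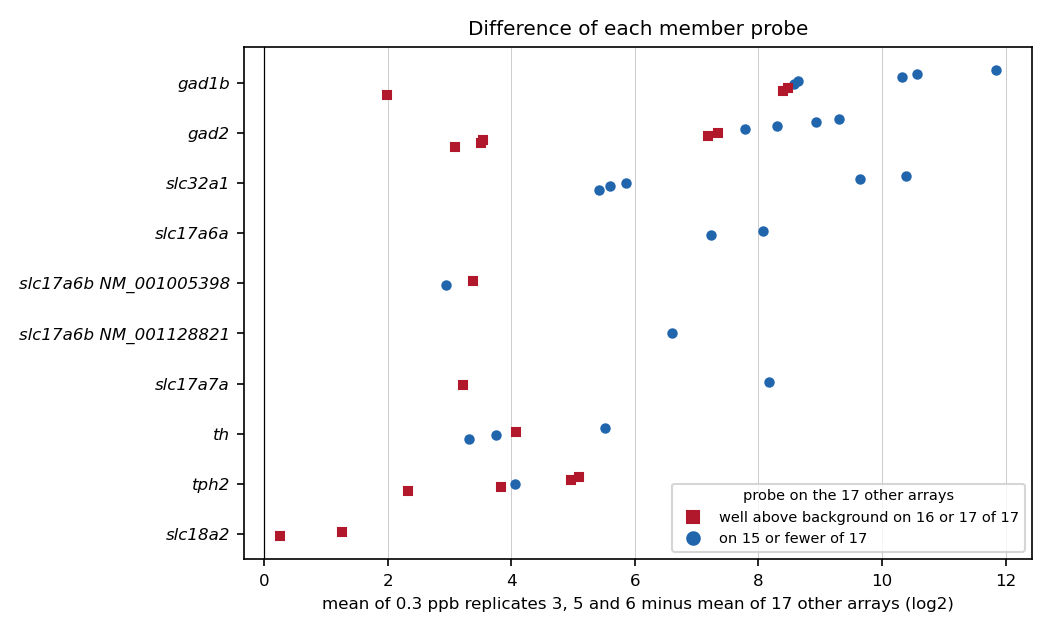
Difference (log2) of each of the 40 member probes between the mean of the 0.3 ppb arrays of replicates 3, 5 and 6 and the mean of the 17 other arrays, by target. Squares mark the 17 probes well above background on 16 or 17 of the 17 arrays and circles the other 23, and the squares of gad1b and gad2 include the smallest differences of these genes.

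The brain-like arrays were not alike for every member. The levels of slc17a6a, NM_001128821 of slc17a6b and slc17a7a spanned 0.13, 0.16 and 0.28 over the 3 arrays. Those of gad2, gad1b and tph2 spanned 0.53, 0.65 and 0.83. The spans were 1.13 for slc18a2, 1.21 for slc32a1, 1.27 for th and 1.46 for NM_001005398 of slc17a6b. The median span over all targets was 0.93. For the last 4 targets replicate 3 was below the mean of replicates 5 and 6 by 1.00 (slc18a2), 1.16 (slc32a1), 1.20 (th) and 1.39 (NM_001005398), against a median of 0.50 below over all targets. Replicate 3 was scanned in another session than replicates 5 and 6, and the part of the session in these spans was not tested.

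The other genes around these transmitters were taken as 6 lists with 76 symbols, of which 55 were on the array, each with 1 target. On the 3 brain-like arrays 30 of the 55 targets were all above the 17 others (27.6% of all targets), 6 were all below (16.2% of all targets) and 19 overlapped. The median difference was 2.30, against 6.14 for the members and 0.92 for all targets.

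Of 6 other GABA targets, 3 were higher, 1 was lower and 2 overlapped. The widest differences were in slc6a1b and slc6a1a, copies of a GABA transporter that clears GABA from the synapse. slc6a1b read 5.79 to 6.30 on the brain-like arrays, against -5.47 to -3.18 on the 17, and slc6a1a 3.02 to 3.46 against -6.93 to -3.94. At the other end, slc6a11a, another GABA transporter gene, read -5.31 to -4.21 on the brain-like arrays, against -2.15 to -0.06 on the 17. gad3, a further decarboxylase gene, read -5.04 to -3.17, against -4.94 to -2.48 on the 17, and so overlapped.

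Of 11 other glutamate targets, 7 were higher, 1 was lower and 3 overlapped. slc1a2b, a copy of the main glial glutamate transporter, read 2.94 to 3.46 on the brain-like arrays, against -6.41 to -2.89 on the 17. slc1a1, a neuronal glutamate transporter, read 1.51 to 1.85, against -4.70 to -0.58. glulb, a copy of glutamine synthetase, was the lower target, with 3.01 to 3.48 on the brain-like arrays, against 4.98 to 5.67 on the 17. gls2b, a glutaminase, overlapped with -5.56 to -4.78, against -7.12 to -3.76.

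Of 11 other targets of dopamine and noradrenaline, 4 were higher, 1 was lower and 6 overlapped. th2, the second gene of the tyrosine hydroxylase name in zebrafish, read -0.03 to 0.31 on the brain-like arrays, against -7.97 to -3.84 on the 17. It was well above background on 7 of the 17, so that its lower levels are those of dim spots. It was placed in this list by its name, and which transmitter it serves was not tested. comtb, a copy of an enzyme that inactivates catecholamines, read -2.91 to -2.35, against -8.08 to -3.90, and was well above background on 8 of the 17. pts, an enzyme in the synthesis of the cofactor that both hydroxylases need, was lower with -2.73 to -2.57 on the brain-like arrays, against -2.09 to -0.70 on the 17. spra, of the same cofactor pathway, overlapped with -3.44 to -2.72, against -3.44 to -2.10.

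The targets listed for serotonin did not share the position of tph2, and th2 was not in this list. Of the 7 targets in this list, 0 were higher on all 3 brain-like arrays, 2 were lower and 5 overlapped. The lower ones were tph1a and tph1b, the copies of the other tryptophan hydroxylase, which in mammals is the form outside the brain. tph1a read -2.88 to -2.41 on the brain-like arrays, against -0.45 to 1.49 on the 17, and tph1b -3.90 to -3.20 against -1.01 to 0.67. The widest differences upward were 1.25 for slc6a4b, a serotonin transporter copy, with -4.86 to -3.09 against -7.24 to -3.29, and 0.99 for asmt, an enzyme of melatonin synthesis, with -6.62 to -3.14 against -7.26 to -3.99. Both overlapped.

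Of 8 targets of other transmitters 7 were higher and 1 was lower. ache, which breaks down acetylcholine, read 2.49 to 2.99 on the brain-like arrays, against -6.54 to -3.96 on the 17. chata, which makes it, read -1.14 to -0.93, against -8.16 to -3.91. It was well above background on 5 of the 17, so that its lower levels are those of dim spots. slc6a5, a glycine transporter, was the higher target with the smallest difference, at -1.87 to -0.73 against -4.67 to -2.15. slc18b1, a vesicular polyamine transporter in mammals, was lower with -5.77 to -0.95 on the brain-like arrays, against -0.07 to 0.99 on the 17. It was well above background on 2 of the 3 brain-like arrays. Of 12 targets of the synaptic vesicle and its fusion, 9 were higher and 3 overlapped. snap25b and snap25a, copies of a protein of vesicle fusion that were also among the brain markers, read 4.59 to 5.15 and 5.55 to 5.72 on the brain-like arrays, against -6.70 to -3.36 and -4.80 to -2.22 on the 17. The smallest differences were those of rab3aa (0.50 to 0.67, against -0.29 to 1.46 on the 17) and sv2ba (-4.97 to -3.98, against -5.64 to -3.55).

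**Figure D3:**
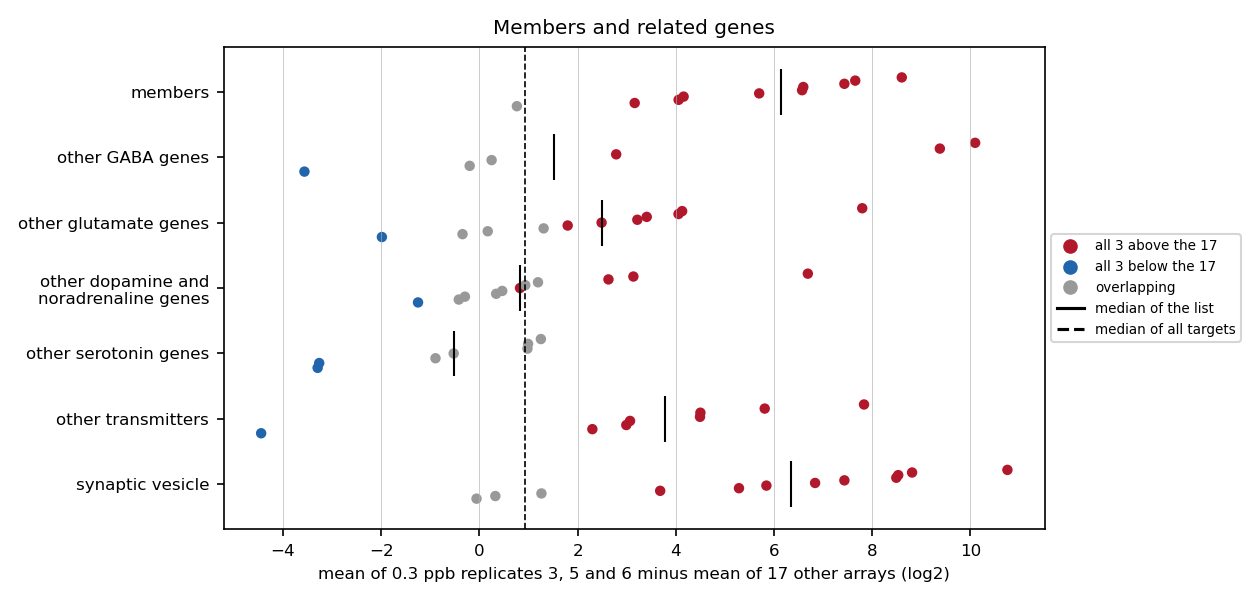
Difference (log2) between the mean of the 0.3 ppb arrays of replicates 3, 5 and 6 and the mean of the 17 other arrays for the 10 member targets and the 55 targets of 6 related lists, 1 point per target, colored by the position of the 3 arrays relative to the 17. Short lines are list medians and the dashed line is the median of all targets at 0.92, and only the serotonin list has its median below 0.

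As a test of the treatments, the 4 groups were compared by limma over the 20 arrays of replicates 2 to 6, with Benjamini-Hochberg adjustment over 77368 targets. At 0.3 ppb, which holds the brain-like arrays, 0 of 10 member targets were changed relative to 0 ppb, with 0% of all targets called higher and 0.00388% (3 targets) lower. Before adjustment, at p below 0.05 and the minimum fold change, 9 of the 10 targets passed, all higher. Of all 77368 targets 26706 passed, 15754 higher and 10952 lower. The log2 fold change of gad1b was 4.96 ± 1.58 (SE, adjusted p = 0.0561), that of gad2 3.80 ± 1.16 (SE, adjusted p = 0.056) and that of slc32a1 4.10 ± 1.43 (SE, adjusted p = 0.0634). It was 4.79 ± 1.48 (SE, adjusted p = 0.056) for slc17a6a, 3.82 ± 1.01 (SE, adjusted p = 0.056) for slc17a7a, and 1.87 ± 0.87 (SE, adjusted p = 0.136) and 5.66 ± 1.30 (SE, adjusted p = 0.056) for NM_001005398 and NM_001128821 of slc17a6b, where the fit of NM_001128821 lacked the missing replicate 2. At 0 ppb NM_001128821 was not well above background on any array. Its mean level over the 4 arrays with a value at 0.3 ppb was therefore at least 12.9-fold higher, which is no bound for all 5. That mean rests on the 3 brain-like arrays and replicate 4, which read -8.19 and was itself not well above background. The log2 fold change was 2.30 ± 0.98 (SE, adjusted p = 0.105) for th and 1.98 ± 0.91 (SE, adjusted p = 0.132) for tph2. The value of slc18a2 was 0.20 ± 0.33 (SE, adjusted p = 0.723). These means mix both kinds of array, as at gad1b, whose 0.3 ppb level averaged -0.30 ± 5.05, against -5.25 ± 1.00 at 0 ppb (SD, n = 5 each).

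The adjusted p of most members lay close to the threshold, and the calls turned with the fit. With the replicate number as a block, which removes what the arrays of a slide share, 9 of the 10 targets were changed at 0.3 ppb, all higher (adjusted p = 0.0371 to 0.0445). slc18a2 was not (log2 fold change 0.20, adjusted p = 0.468). The 9 include NM_001128821 of slc17a6b, which passed the filter on dim probes only with the brain-like arrays. Its 0.3 ppb group also lacked replicate 2. In this fit 17.1% of all targets were called higher and 10.6% lower. The study's threshold, an analysis of variance and Tukey's test without adjustment together with the same minimum fold change, was passed by 5 member targets (gad1b, gad2, slc17a6a, slc17a7a and NM_001128821 of slc17a6b), with 7.1% of all targets higher and 8.51% lower. By limma without the block, 7 member targets were changed when replicate 2 was left out and 6 when replicate 4 was left out, the 2 replicates whose 0.3 ppb array was not brain-like, and 0 when replicate 3, 5 or 6 was left out. Of all targets 17.2% were then called higher and 11.7% lower without replicate 2, and 16.5% higher and 11.4% lower without replicate 4. Of the 55 targets of the related lists, 0 were called at 0.3 ppb without the block, and with it 23 were called higher and 6 lower.

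Without the 3 brain-like arrays, 0 of 9 testable member targets were changed at 0.3 ppb (replicates 2 and 4, n = 2) relative to 0 ppb, and 0% of 76786 targets were called by limma. Before adjustment the count of members at p below 0.05 was also 0. NM_001128821 of slc17a6b had too few values for this test. The log2 fold changes lay between -0.99 (tph2) and 0.38 (slc17a7a), with a median of -0.50 over the members and -0.36 over all targets. The value of tph2 was -0.99 ± 0.61 (SE, adjusted p = 0.887), and that of slc18a2 was -0.44 ± 0.29 (SE, adjusted p = 0.887). The others were within their standard errors. The 0 ppb group then included the brighter slides of replicates 5 and 6, which the 0.3 ppb group lacked. With the replicate block as well, 6 of the 9 fold changes were positive and 3 negative, between -0.43 (tph2) and 0.75 (slc17a7a), and 0 were called (adjusted p = 0.927 to 0.993).

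At 3 and 30 ppb no difference of the members from 0 ppb passed the test. By limma 0 of 10 targets were changed at either dose (adjusted p = 1.00 each), with p below 0.05 before adjustment also 0, and 0% of all targets were called (586 at 3 ppb and 363 at 30 ppb at the unadjusted p). The log2 fold changes at 3 ppb had a median of 0.24 over the members and 0.09 over all targets. The largest was 1.90 ± 1.23 (SE) in NM_001128821 of slc17a6b, which only 1 of 5 arrays at 3 ppb and 0 of 5 at 0 ppb had well above background. The lowest was -0.26 ± 0.33 in slc18a2. At 30 ppb the median was 0.20 over the members and 0.10 over all targets, and the values lay between -0.03 ± 1.43 (slc32a1) and 1.02 ± 1.23 (NM_001128821). gad1b, for example, averaged -5.25 ± 1.00 at 0 ppb, -5.08 ± 1.22 at 3 ppb and -5.05 ± 0.87 at 30 ppb (SD, n = 5 each). The standard errors of up to 1.58 on the log2 scale include the brain-like arrays in the shared spread, and they fell to at most 0.66 without these arrays, with 0 member targets called. In that fit 0.0013% of all targets were called higher at 3 ppb, and at 30 ppb 0.0013% once the block was added. By the study's threshold 0 member targets passed, with 0.107% of all targets higher and 0.0452% lower at 3 ppb, and 0.0595% higher and 0.0155% lower at 30 ppb.

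Replicate 1 offers an array at 0.3 ppb that had no part in the choice of the brain-like arrays. On its slide the spots read as placed by the software had a correlation of at most 0.00767 with the median 0 ppb array. Moving the grid by whole rows and columns, chosen on spots of genes in no list, raised the correlation of the 0.3 ppb array with the median of the 17 arrays to 0.532 and with the median of the 3 brain-like arrays to 0.789. The moves that fitted best were the same against both medians in 14 of 14 blocks of rows. For the 0, 3 and 30 ppb arrays of this slide the correlations were 0.488, 0.769 and 0.460 with the 17, and 0.272, 0.525 and 0.277 with the 3. This step was added after the data had been seen, and with 1 array a dose it has no replicate check.

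On the moved grid the 0.3 ppb array of replicate 1 read 6 of the 9 genes within or slightly above their range on the brain-like arrays. gad1b had a level of 3.74 at 0.3 ppb, against -0.65 at 0 ppb, with -2.04 at 3 ppb and -0.42 at 30 ppb on the same slide. gad2 read 3.27 at 0.3 ppb, against 0.13 at 0 ppb, and slc32a1 2.14 against -0.49. slc17a6a read 1.22 at 0.3 ppb, against -1.71 at 0 ppb, slc17a7a 1.29 against -1.59, and tph2 0.19 against -0.999. Each of these 6 genes was also brighter at 0.3 ppb than at 3 and 30 ppb on this slide. With at least 1 probe well above background, this made 6 of the 9 member targets with values on all 4 arrays brightest at 0.3 ppb, against 9.27% of 54535 targets. The dim end of the slide was cut off, with lowest levels of -1.71, -1.32, -2.13 and -1.84 at 0, 0.3, 3 and 30 ppb, so that the low values are bounds. th was at -0.41 at 0.3 ppb with 0 of 3 probes well above background, against -0.54 at 0 ppb with 2 of 3. slc18a2 was at the lowest level of the 0.3 ppb array, and both slc17a6b targets had 0 probes well above background on it. slc18a2 (-1.32) and NM_001128821 of slc17a6b (-0.77) also fell within their range on the brain-like arrays, with 0 probes well above background. A level in that range alone therefore does not show signal on this array.

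**Figure D4:**
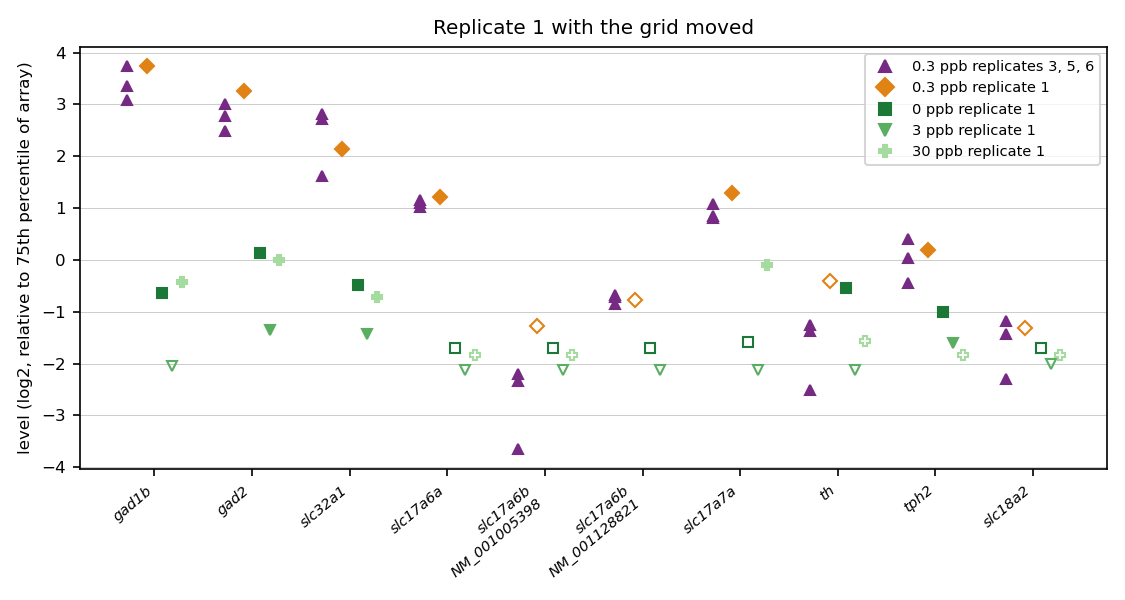
Level (log2 intensity relative to the 75th percentile of the array) of the 10 member targets on the 0.3 ppb arrays of replicates 3, 5 and 6 and on the 4 arrays of replicate 1 after the grid was moved. Open symbols have 0 probes well above background. The 0.3 ppb array of replicate 1 lies close to or among the triangles for gad1b, gad2, slc32a1, slc17a6a, slc17a7a and tph2. For these genes it lies above the other arrays of its slide. Its open symbols for slc18a2 and NM_001128821 of slc17a6b also lie at the height of their triangles. Levels of replicate 1 may not be on one scale with the triangles.

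The targets outside all lists whose pattern was most like the members were sought among 13220 targets with a symbol and a value on each of the 20 arrays. The measure was the mean absolute distance between the centered levels of a target and the centered median level of the members over 20 arrays. The nearest were cadm4 (0.13), dlx1a (0.19), gpr27 (0.20), dtnbp1b (0.22) and chst1 (0.26). cadm4, a cell adhesion molecule, read 0.41 to 0.67 on the brain-like arrays, against -6.44 to -3.84 on the 17. dlx1a, a transcription factor of GABAergic forebrain nerve cells, read 0.19 to 0.90, against -5.74 to -3.31. The members themselves had distances of 0.35 (gad2) to 0.82 (NM_001128821 of slc17a6b), and slc18a2 was at 1.44.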

How the data were processed

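The authors hybridized Cy3-labelled RNA to custom one-color arrays and read them with Agilent Feature Extraction 11.5. The deposited values are the processed intensity of each spot, background-subtracted on its own array, with marks for outliers and for signal well above background. The array-to-array normalization made in GeneSpring is not in them. Here outlier-marked spots were left out, log2 of the intensity (floor 1) was taken minus the 75th percentile of the array, spots were averaged to probes and probes to targets, and a probe was kept if at least 3 of the 20 arrays had it well above background (77374 of 89208 targets). limma 3.58.1 (R 4.3.3, package data.table, version 1.17.8) fitted the 4 groups, with an adjusted p of 0.05, an absolute log2 fold change of 0.585 and at least 2 values per group. Summaries used pandas 2.3.3 and numpy 2.4.6 in Python 3.11.15, and figures matplotlib 3.10.9.

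Replicate 1 was left out, since its grid was misplaced. Replicate numbers stand for slides, so the block removes what the arrays of a slide share. Whether they also stand for start days is not given by the labels. Over 68236 targets, the deviations of 26 of 30 same-numbered pairs had a correlation above 0.1 (median 0.30), against 54 of 160 other pairs (median -0.21). On simulated data for 0.3 ppb over 0 ppb with 77374 targets, 23% of 100 targets with a log2 change of 2 and 61% of 100 with a change of 4 were called. The noise simulated was independent between arrays. The change was put on these targets only and on all 5 arrays at 0.3 ppb, while in the data 3 of the 5 were brain-like. The shares called therefore do not describe the contrast seen at 0.3 ppb.

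Between 40.6% and 87.9% of the spots other than controls were well above background on the 20 arrays, whose number limits the precision. The members and lists were chosen with earlier results of these data known. The named genes were each member, per related list up to 2 targets with the largest and smallest difference, and the 5 nearest targets. All 10 member targets were named through the RefSeq accessions of the array. Alternatives were quantile normalization, normexp (offset 50), other filters, the median over probes, a replicate block, only the 2 groups compared, all 24 arrays, arrays or replicates left out, and the study's threshold. The block together with leaving out the brain-like arrays, and the moved grid, were added after the data had been seen.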

Additional observations from a re-analysis of the deposited data

Results flagged for a closer look

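In 40 sets of member levels (10 targets in 4 treatments), 3 had a value farther from its neighbors than Dixon's limit, where chance gives about 5 in 100. These were slc17a6a on the 0 ppb array of replicate 2 (-8.74), NM_001128821 of slc17a6b on the 0.3 ppb array of replicate 4 (-8.19), the only measured array of that dose outside the brain-like ones, and slc17a7a on the 3 ppb array of replicate 6 (-2.55), which has a poor grid.

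Replicate 1 lay outside all tests. With its grid moved, 6 genes were brighter on its 0.3 ppb array than on any 0 ppb array, its own slide included, and had at least 1 probe well above background. These were 6 of the 9 member targets with values on all 4 arrays of the slide, against 10.1% of 54535 targets. They were gad1b (3.74), gad2 (3.27), slc17a6a (1.22), slc17a7a (1.29), slc32a1 (2.14) and tph2 (0.19). How far the moved grid alters these levels was not tested beyond the correlations given above. Levels of this slide may not be on one scale with those of the 0 ppb arrays on other slides. The lowest level of the moved 0.3 ppb array was -1.32, and the 6 genes read at most -2.96 on those arrays. For these genes, being above those arrays was therefore fixed in advance, and only the 0 ppb array of its own slide could differ.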

How the results depend on the processing

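The count of members brighter on all 3 brain-like arrays than on the 17 others was 9 of 10 in the main setting and under quantile normalization, normexp and the median over probes. The share of all targets was 27.6% in the main setting and was not computed in the others. Their differences were smaller under normexp, 0.71 to 6.57 against 0.76 to 8.60, and that of slc18a2 was 0.15 under quantile normalization.

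At 0.3 ppb the count of changed members, 0 by limma over 20 arrays, was 8 with quantile normalization, 9 with normexp, 3 of 5 with probes well above background on all 20 arrays, and 5 by the study's threshold. The count of changed targets, 3 of 77368, was 21563 of 77368, 34050 of 77368, 9441 of 20363 and 12078 of 77368 in these settings. It was 1 with only the 2 groups compared, and 0 with all 24 arrays, without the brain-like arrays, and without these arrays with the block. With the replicate block, where the numbers pair the samples by slide, 9 members and 21403 targets were changed. Leaving out 1 replicate number gave 0 to 7 members and 0 to 22338 targets. Without replicate 2 there were 7 members and 22338 targets, without replicate 4 there were 6 members and 21603 targets, and without replicate 3, 5 or 6 there were 0 of both. At 3 and 30 ppb 0 members were changed in any setting. At 3 ppb the count of targets, 0, was 1 without the brain-like arrays and 118 by the study's threshold. At 30 ppb it was 1 with probes well above background on all 20 arrays, 58 by the study's threshold and 1 without the brain-like arrays with the block. Without the brain-like arrays, adding the block took the count of targets from 1 to 0 at 3 ppb and from 0 to 1 at 30 ppb. The block changed no other count of targets and no count of members at these doses. The cause of these changes was not tested.

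Of the member fold changes under alternatives, 393 kept their sign and their side of the threshold, 47 came to pass the test and 49 had the other sign, of which 0 passed the test. Without the brain-like arrays, the changed values were at 0.3 ppb -0.31 for slc17a6a, -0.72 for slc32a1, -0.57 for gad1b, -0.38 for gad2, -0.55 for th, -0.44 for slc18a2, -0.99 for tph2 and -0.50 for slc17a6b NM_001005398. With all 24 arrays, the changed values were at 3 ppb 0.36 for slc32a1 and -0.20 for gad2 and at 30 ppb 0.040 for slc32a1, -0.21 for gad2, -0.42 for tph2 and -0.39 for slc17a6b NM_001128821. With normexp (offset 50), the changed values were at 3 ppb 0.10 for slc32a1 and 0.14 for tph2 and at 30 ppb 0.14 for slc32a1 and 0.10 for slc18a2. With the median over probes, the changed values were at 30 ppb 0.045 for slc32a1, -0.082 for gad2 and -0.25 for th and at 3 ppb -0.15 for gad2. Without the arrays with a poor grid, the changed values were at 30 ppb 0.44 for slc32a1 and 0.072 for slc18a2 and at 3 ppb -0.24 for gad1b, -0.025 for gad2 and -0.10 for th. With probes well above background on all 20 arrays, the changed values were at 3 ppb -0.15 for gad1b and -0.16 for gad2 and at 30 ppb -0.14 for gad1b, -0.24 for gad2 and 0.065 for slc18a2 and at 0.3 ppb -0.11 for slc18a2. Without the brain-like arrays and with the replicate block, the changed values were at 0.3 ppb -0.040 for gad2, -0.14 for slc18a2 and -0.43 for tph2. With quantile normalization, the changed values were at 3 ppb -0.043 for gad2 and -0.084 for th and at 30 ppb -0.072 for gad2, -0.057 for th and 0.0078 for slc18a2 and at 0.3 ppb -0.016 for slc18a2. Leaving out 1 replicate number gave at 30 ppb -0.27 to 0.34 for slc32a1, -0.10 to 0.17 for gad2, -0.0074 to 0.17 for th and -0.044 to 0.025 for slc18a2. The fold change of NM_001128821 of slc17a6b could not be had without the brain-like arrays, and with probes well above background on all 20 arrays 5 of the 10 member targets had values. The number of arrays and dim spots limit what could be seen at 3 and 30 ppb.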
